A study of Mus musculus with 6 samples.

Results

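The genes described here are 10 transcripts of mast cells and of the signal that maintains them, out of 52550 genes listed in the deposited expression tables. They were selected on an earlier reading of the same comparison of FPKM levels, in which mast cell protease RNA was lower after loss of Zfp90 from the intestinal epithelium. Their differences between genotypes are therefore given as a description and without a test. The mucosal chymase genes are Mcpt1 and Mcpt2. The genes of connective-tissue mast cells are Mcpt4, Cma1 and Tpsb2. Mcpt9, a further chymase gene, Cpa3, and the IgE receptor genes Fcer1a and Ms4a2 make up the rest of the mast cell genes, and Kitl encodes the growth factor.

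Mast cells are resident immune cells that store proteases in granules bound to serglycin, and release them when IgE on their receptor is cross-linked. Mice have mucosal mast cells, which lie in and under the gut epithelium and hold the chymases of Mcpt1 and Mcpt2, and connective-tissue mast cells of the submucosa and skin, which hold the products of Mcpt4, Cma1, Tpsb2 and Cpa3. Both depend on stem cell factor, the product of Kitl, which is made by epithelial, stromal and endothelial cells and acts on the receptor KIT.

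RNA came from colon epithelial cells that had been released with EDTA and DTT from male C57BL/6 mice, in 3 samples of the genotype Zfp90 fl/fl and 3 of the genotype Zfp90ΔIEC. Both groups carried loxP sites in Zfp90, a gene for a zinc finger protein, and the Zfp90ΔIEC mice in addition carried Cre under the Villin promoter, which is active in intestinal epithelium and not in mast cells. Mice were 6 to 8 weeks old by the labels, while the study's methods give 8 weeks at the start of treatment, so neither is the age at sampling. All received the carcinogen azoxymethane (AOM, 10 mg/kg), followed after 5 days by 3 cycles of 2% (by the labels, from which the study's methods differ in strength) dextran sulfate sodium (DSS) in drinking water for 7 days and plain water for 14 days, and were killed on day 80. No sample without AOM-DSS was analysed here. Since cages held a single genotype from weaning on, an effect of the cage cannot be told apart from that of the deletion. The labels do not say whether a sample is 1 mouse or a pool.

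The deleted gene was read first. Zfp90 was at 0.630, 0.490 and 0.569 FPKM (reads scaled to depth and to transcript length, a level that can be compared between genes) in the Zfp90 fl/fl samples. It was at 0.0846, 0.195 and 0.166 FPKM in the Zfp90ΔIEC samples, and the groups did not overlap. Krt8, an epithelial keratin, had a mean of 2900 FPKM in Zfp90 fl/fl and 2820 FPKM in Zfp90ΔIEC, and Epcam lay between 554 and 608 FPKM in the 6 samples. Ptprc, which marks blood-derived cells, was between 0.306 and 0.812 FPKM, so the samples were epithelium with a small share of immune RNA. Depth is not stated, and the step size of low values gave an estimate of 25.9 to 29 M fragments per sample.

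The chymases are shown by the 30 bases of coding sequence around the codon of the catalytic serine, since how alike the copies are bears on how well their reads can be separated. The stretches were found in frame as a glycine codon, an aspartate or glutamate codon, any codon and 2 glycine codons in the coding sequences of the GENCODE mouse annotation on GRCm38, and the serine codon is in capitals.
Mcpt1: gcatacatgggagacTCTgggggacctctt
Mcpt2: ataggacaaggagatTCTgggggacctcta
Mcpt4: gcatacaagggagacTCTggaggacctcta
Mcpt9: gtatacatgggagacTCTggaggacctcta
Cma1: gtatacaagggagacTCTggaggacctctg

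The codon TCT was shared by all 5 genes, and started at base 604 of the coding sequence in Mcpt1, Mcpt2, Mcpt4 and Mcpt9 and at base 646 in Cma1. Over the whole coding sequence, Mcpt1 was 86.8% identical to Mcpt4, 83.4% to Mcpt9, 81.3% to Mcpt2 and 61.7% to Cma1. By sequence Mcpt1 was thus closer to the connective-tissue gene Mcpt4 than to its mucosal partner Mcpt2. Over the whole transcripts, untranslated parts included, the longest run of identical bases between any pair was 56 bases, between Mcpt4 and Mcpt9. That is shorter than a read of this study. How reads that match several copies were counted is not given in the sources used here. The low values of Mcpt4 and Mcpt9 also rest on few estimated fragments, at most 3.2 and 10.5 in a sample, and are uncertain for both reasons.

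In the annotation the 5 chymase genes lie close together on chromosome 14, with Cma2 among them, in the order Cma1, Cma2, Mcpt1, Mcpt9, Mcpt2 and Mcpt4, followed by Mcpt8, Ctsg (cathepsin G) and the granzyme genes. Mcpt1 and Mcpt2 lie on the plus strand, and Cma1, Mcpt9 and Mcpt4 on the minus strand. Cpa3 and Kitl lie on chromosomes 3 and 10.

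RefSeq promoters of GRCm38.p6, from 250 bases before to 50 bases after the start site, were at hand for 8 of the 10 genes. Those with the letters of a TATA box shortly before the start site are shown by 30 bases around it, with TATAAA in capitals.
Mcpt1, plus strand, chr14:56017924-56017953: ccacgttggatcTATAAAagcaggaaccag
Mcpt4, minus strand, chr14:56062325-56062354: ccacgttggagcTATAAAagcaggaaccag
Cpa3, minus strand, chr3:20242195-20242224: taaaagctgaggTATAAAacccgtataggg
Kitl, plus strand, chr10:100015784-100015813: gggagggagctgTATAAAaagcgctggcgg

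The motif TATAAA, searched on both strands, was present in 14.2% of 27025 promoters of that length. It began 28 bases before the start site in Mcpt1, 32 in Mcpt4, 31 in Cpa3, which held a second match, and 25 in Kitl, a further match lay 125 bases before that of Fcer1a, and Cma1, Mcpt9 and Ms4a2 held none. The promoters of Mcpt1 and Mcpt4 were 81.0% identical, against 43.8% to 50.8% for the other pairs of Mcpt1, Mcpt4, Mcpt9 and Cma1. GATAA, the core letters of GATA factor motifs, was found once each in Mcpt1, Mcpt4, Cma1, Cpa3 and Fcer1a and at 3 places in Ms4a2, in neither Mcpt9 nor Kitl, and in 25.8% of all promoters. The E-box CANNTG, which many helix-loop-helix factors including MITF can bind, was found in Cma1, Mcpt9, Cpa3, Fcer1a and Kitl and in 72.1% of all promoters, and its form CACGTG in none of the 8 and in 7.20% of all. These matches are letters in a window and say nothing of binding.

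Of the 9 mast cell members, the mucosal chymases had the highest levels in Zfp90 fl/fl. Mcpt1, a chymotrypsin-like protease that mucosal mast cells release into the gut lumen and blood, was at 11.7, 13.7 and 8.46 FPKM in Zfp90 fl/fl and at 0.698, 0.609 and 1.05 FPKM in Zfp90ΔIEC. The lowest Zfp90 fl/fl sample was well above the highest Zfp90ΔIEC sample. The group means were 11.3 ± 2.63 and 0.787 ± 0.235 FPKM (SD, n = 3 each), a 14.3-fold lower level in Zfp90ΔIEC, and the log2 fold change on log2(FPKM + 1) was -2.76 with a standard error of 0.172. In bulk RNA, fewer mast cells and less RNA per mast cell cannot be told apart. As estimated from the depth, these levels rest on 307, 391 and 239 fragments in Zfp90 fl/fl and on 19.5, 17.8 and 29.9 in Zfp90ΔIEC.

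Mcpt2, the close relative of Mcpt1 in the same granules, was at 5.58, 6.31 and 4.08 FPKM in Zfp90 fl/fl and at 0.318, 0.215 and 0.330 FPKM in Zfp90ΔIEC. The groups stood apart in the same way, and the means of 5.32 ± 1.14 and 0.288 ± 0.0634 FPKM (SD, n = 3 each) gave an 18.5-fold lower level. Its log2 fold change was -2.28 with a standard error of 0.137, smaller than that of Mcpt1 because the added 1 weighs more at a low level. About 6.6 to 9.8 fragments stood behind each Zfp90ΔIEC value, against 121 to 189 in Zfp90 fl/fl.

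Mcpt1 and Mcpt2 moved together from sample to sample. In both genes sample 2 was highest and sample 3 lowest of the Zfp90 fl/fl samples, and the ratio of Mcpt1 to Mcpt2 in those samples was 2.10, 2.17 and 2.07. In Zfp90ΔIEC the ratio was 2.19, 2.83 and 3.19, all above the Zfp90 fl/fl range, with few Mcpt2 fragments behind it. Pearson's r of log2(FPKM + 1) between the pair was 0.998 over the 6 samples, a description that includes the split by genotype.

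**Figure D1:**
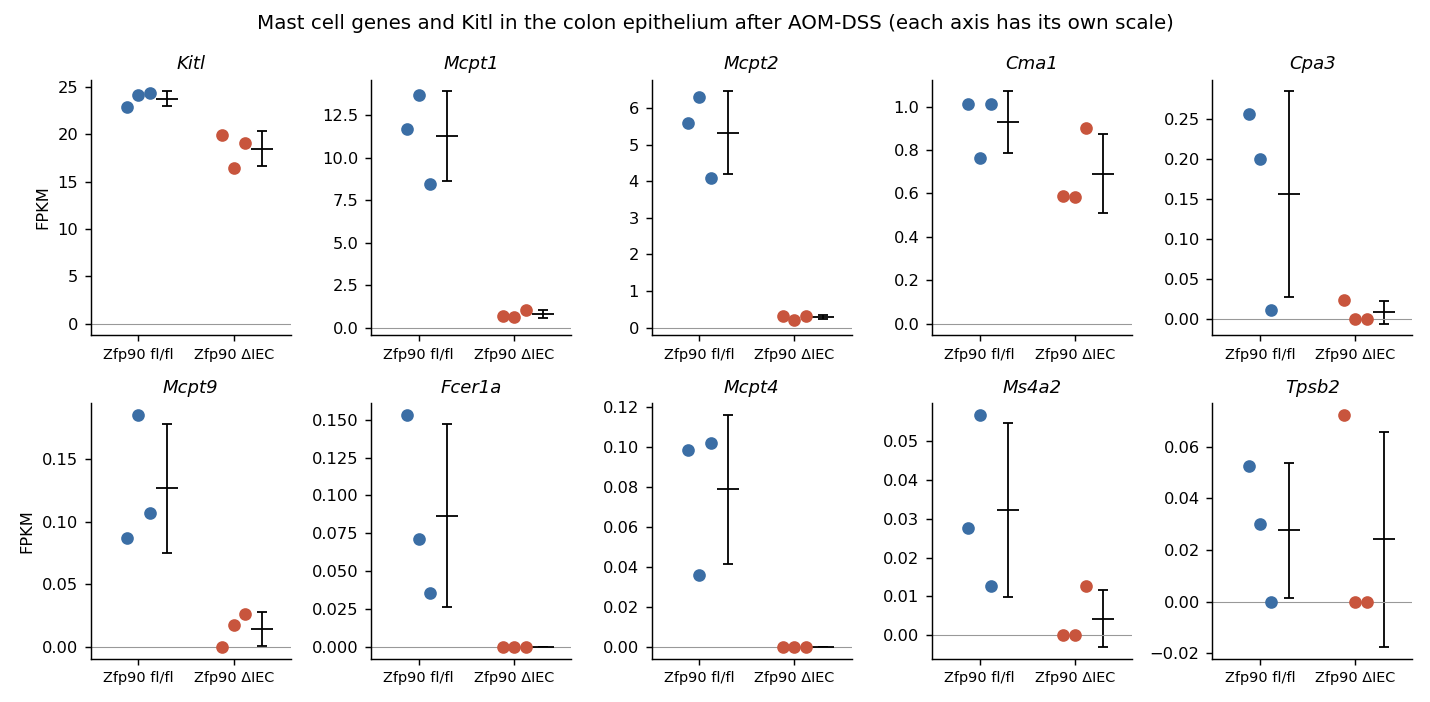
Levels in FPKM of the 10 genes in each sample (points; blue, Zfp90 fl/fl; red, Zfp90ΔIEC), with the mean and SD of each group of 3 as a bar beside them; every panel has its own scale. Mcpt1, Mcpt2, Mcpt4, Mcpt9, Fcer1a and Kitl show groups that do not overlap, and the panels from Cpa3 to Tpsb2 all lie below 0.3 FPKM.

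The connective-tissue genes Mcpt4, Cma1 and Tpsb2 did not share a pattern, and only Cma1 among them was above 0.2 FPKM. Cma1, the mouse alpha-chymase, was at 1.01, 0.762 and 1.01 FPKM in Zfp90 fl/fl and at 0.589, 0.583 and 0.902 FPKM in Zfp90ΔIEC. The groups overlapped, because Zfp90ΔIEC sample 3 was above Zfp90 fl/fl sample 2. The means were 0.927 ± 0.143 and 0.691 ± 0.183 FPKM (SD, n = 3 each), 1.34-fold lower in Zfp90ΔIEC, and the log2 fold change was -0.19 with a standard error of 0.108.

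Mcpt4, a chymase of connective tissue that acts on matrix proteins, was at 0.0982, 0.0360 and 0.102 FPKM in Zfp90 fl/fl and was listed at 0 in all 3 Zfp90ΔIEC samples. Its Zfp90 fl/fl values equal about 2.8, 1.1 and 3.2 fragments, so that no fold is given. Tpsb2, a tryptase gene, was at 0.0524, 0.0302 and 0 FPKM in Zfp90 fl/fl and at 0.0722, 0 and 0 FPKM in Zfp90ΔIEC. A Zfp90ΔIEC sample held the highest Tpsb2 value, and the gene was near the limit of detection in both groups.

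Among the other protease genes, Mcpt9, a chymase described in mast cells of the uterus, was at 0.0874, 0.185 and 0.107 FPKM in Zfp90 fl/fl and at 0, 0.0174 and 0.0266 FPKM in Zfp90ΔIEC. The groups did not overlap, on 4.5 to 10.5 estimated fragments against 0 to 1.5. Cpa3, carboxypeptidase A3, was at 0.256, 0.200 and 0.0115 FPKM in Zfp90 fl/fl and at 0.0240, 0 and 0 FPKM in Zfp90ΔIEC. Its groups overlapped through Zfp90 fl/fl sample 3, the sample in which Mcpt1 was also lowest.

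The receptor genes were scarcely detected. Fcer1a, the chain of the receptor that binds IgE, was at 0.153, 0.0713 and 0.0355 FPKM in Zfp90 fl/fl and listed at 0 in all 3 Zfp90ΔIEC samples. Ms4a2, its signal-amplifying beta chain, was at 0.0276, 0.0568 and 0.0126 FPKM in Zfp90 fl/fl and at 0, 0 and 0.0127 FPKM in Zfp90ΔIEC. The Ms4a2 groups met at their edge, and a value of either receptor gene stands on a handful of fragments at most.

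The make-up of protease RNA differed between the genotypes along with its amount. The FPKM of the 7 protease genes summed to 18.8, 21.2 and 13.8 in Zfp90 fl/fl and to 1.70, 1.42 and 2.31 in Zfp90ΔIEC. Mcpt1 and Mcpt2 made up 92.0%, 94.3% and 91.1% of that sum in Zfp90 fl/fl and 59.7%, 57.9% and 59.8% in Zfp90ΔIEC. Cma1 made up 5.39%, 3.60% and 7.33% of it in Zfp90 fl/fl, against 34.6%, 40.9% and 39.0% in Zfp90ΔIEC. The ratio of Cma1 to Mcpt1 averaged 0.0871 ± 0.0316 in Zfp90 fl/fl and 0.886 ± 0.0622 in Zfp90ΔIEC (SD, n = 3 each), with no overlap.

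The mucosal sum of Mcpt1 and Mcpt2 averaged 16.6 ± 3.8 FPKM in Zfp90 fl/fl and 1.07 ± 0.282 FPKM in Zfp90ΔIEC, while the connective-tissue sum of Mcpt4, Cma1 and Tpsb2 averaged 1.03 ± 0.179 and 0.715 ± 0.166 FPKM (SD, n = 3 each). The connective-tissue sums overlapped between the genotypes. They were 1.16, 0.828 and 1.11 FPKM in Zfp90 fl/fl and 0.661, 0.583 and 0.902 FPKM in Zfp90ΔIEC, nearly all from Cma1.

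**Figure D2:**
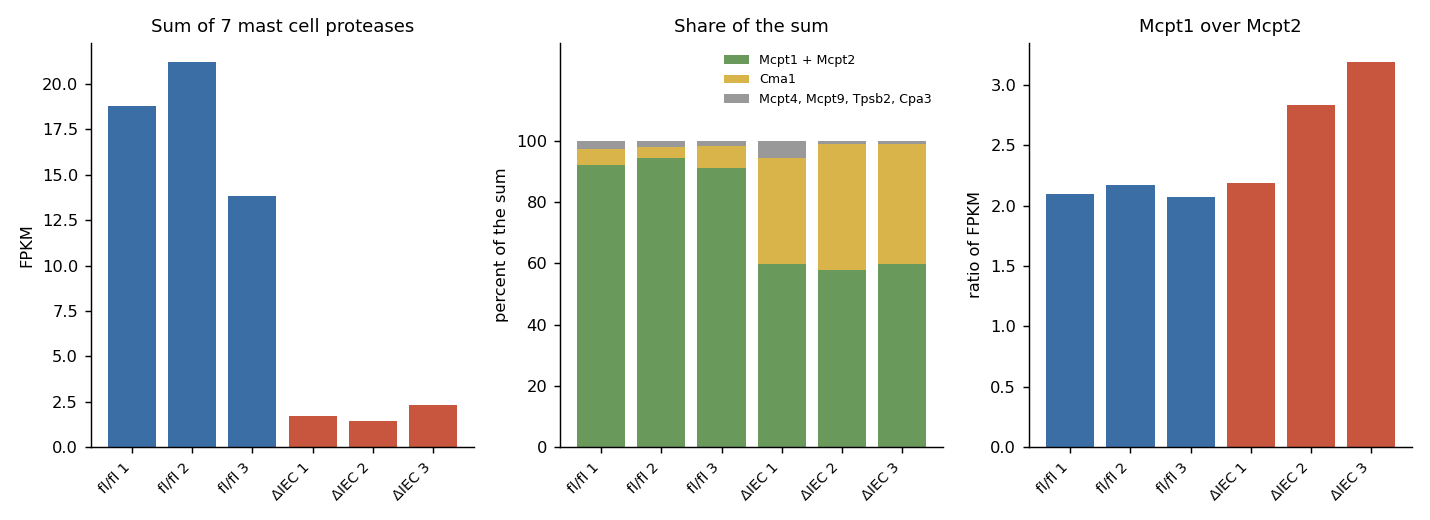
Left, summed FPKM of Mcpt1, Mcpt2, Mcpt4, Mcpt9, Cma1, Tpsb2 and Cpa3 in each sample; middle, the share of that sum from the mucosal pair, from Cma1 and from the rest, in percent; right, the ratio of Mcpt1 to Mcpt2 (blue, Zfp90 fl/fl; red, Zfp90ΔIEC). The sum falls from 13.8 to 21.2 FPKM in Zfp90 fl/fl to 1.42 to 2.31 FPKM in Zfp90ΔIEC, and the share of the mucosal pair from 91.1% or more to 59.8% or less.

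Kitl, the ligand, had the highest level of the 10 genes in either genotype. It was at 22.9, 24.1 and 24.3 FPKM in Zfp90 fl/fl and at 19.9, 16.4 and 19.1 FPKM in Zfp90ΔIEC. All 3 Zfp90ΔIEC samples were below all Zfp90 fl/fl samples, but by a small margin next to that of the chymases. The means were 23.7 ± 0.752 and 18.5 ± 1.84 FPKM (SD, n = 3 each), 1.28-fold lower in Zfp90ΔIEC, and the log2 fold change was -0.35 with a standard error of 0.0798.

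The order of the levels per transcript length in Zfp90 fl/fl was Kitl, Mcpt1, Mcpt2 and Cma1, and no neighbours among these overlapped. Cma1 was also above Cpa3 in every sample, and below it Cpa3, Mcpt9, Fcer1a, Mcpt4, Ms4a2 and Tpsb2 overlapped from neighbour to neighbour. In Zfp90ΔIEC, Kitl stayed first, Mcpt1 and Cma1 overlapped at the second and the third place, and Mcpt2 followed below both. Among all 11564 genes that passed the filter on low values, the mean level over all samples stood at the percentile 81.9 for Kitl, 48.3 for Mcpt1 and 24.3 for Mcpt2.

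Only genes with 1 FPKM or more in at least 3 samples were tested, which 3 of the 10 genes met. Mcpt2 met it through its Zfp90 fl/fl samples alone and Mcpt1 through these and 1 Zfp90ΔIEC sample, so both were tested because they were high in that group. In limma with Benjamini-Hochberg adjustment, 15 of the 11564 genes, 0.130%, passed an adjusted p of 0.05 and were lower in Zfp90ΔIEC. Mcpt1 and Mcpt2 were among these 15 and Kitl was not. Since the same contrast chose the genes, nothing is read from that count. Counting both directions, 23 genes, 0.199%, were past the threshold, a count that fell to 10, of them 3 lower, without Zfp90 fl/fl sample 2.

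All 10 genes had the lower mean in Zfp90ΔIEC. The groups did not overlap for 6 of them, Mcpt1, Mcpt2, Mcpt4, Mcpt9, Fcer1a and Kitl, and overlapped for Cma1, Tpsb2, Cpa3 and Ms4a2. Of the 11564 genes that passed the filter 12.6%, and of the 27805 genes above 0 in at least 1 sample, 8.88% were likewise lower in Zfp90ΔIEC without overlap. The same contrast chose the members, so nothing is read from their count beside these shares. For Mcpt4, Mcpt9 and Fcer1a the separation rests on few estimated fragments, at most 3.2, 10.5 and 4.0 in a sample.

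**Figure D3:**
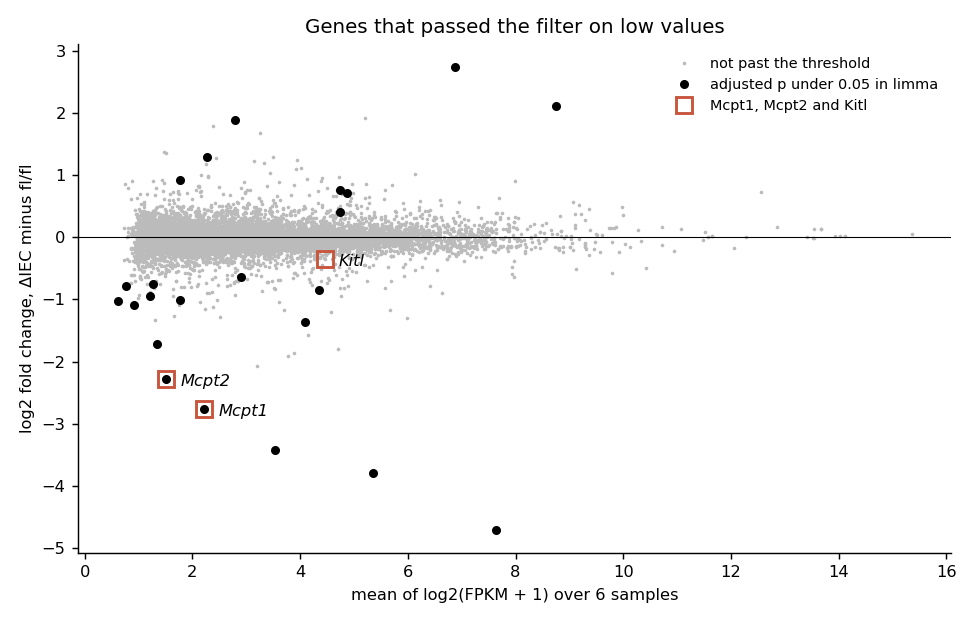
Each point is 1 of 11564 tested genes, with its mean log2(FPKM + 1) over 6 samples on the x axis and its log2 fold change, Zfp90ΔIEC minus Zfp90 fl/fl, on the y axis; black points passed the threshold in limma and red squares mark Mcpt1, Mcpt2 and Kitl. Mcpt1 at -2.76 and Mcpt2 at -2.28 lie far below the band of other genes of their level, and Kitl at -0.35 lies at the edge of that band.

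The genes around these members were read from lists of 97 companion genes, 96 of which were listed. Of the 39 that passed the filter, 0 reached the threshold in limma, 6 had an unadjusted p under 0.05, all lower in Zfp90ΔIEC, and the median log2 fold change was -0.048 against -0.023 for all genes tested. The 6 are 15.4% of the companion genes, near the 14.6% of all tested genes with such a p, of which 935 of 1694 were lower. Without Zfp90 fl/fl sample 3 the count past the threshold was 1, Slpi. Of the 79 companion genes above 0 in any sample, 20 were lower without overlap and 1 was higher, Grb2. The 20 are 25.3%, against 8.88% of all 27805 genes above 0 in at least 1 sample. The lists were chosen with earlier results of these data known, so nothing is read from that difference.

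In the list of further mast cell genes, 6 of 21 were tested, 1 of these had a log2 fold change below 0, and 3 were listed at 0 in all samples (Tpsab1, Mrgprb1 and Mrgprb2). The median log2 fold change of the 6 was 0.09. Of all 21, 4 were lower in Zfp90ΔIEC without overlap and 0 were higher without overlap. The 4 were Srgn and, below the filter and so not tested, Hdc, Fcer1g and Alox5. Among all 27805 genes above 0 in at least 1 sample, 8.88% were likewise lower. Nothing is read from that difference, since the lists were chosen with earlier results known. Srgn, the serglycin core protein on which granule proteases are stored, which other leukocytes also express, was at 2.31, 1.84 and 2.63 FPKM in Zfp90 fl/fl and at 0.683, 0.774 and 1.13 FPKM in Zfp90ΔIEC. The groups did not overlap, and the log2 fold change of -0.81 with a standard error of 0.127 missed the threshold at an adjusted p of 0.0664 in limma. Hdc, the histamine-forming enzyme, was chosen after its values were seen. It was at 0.144, 0.107 and 0.176 FPKM in Zfp90 fl/fl and at 0.00834, 0.0109 and 0.0224 FPKM in Zfp90ΔIEC, below the filter and without overlap.

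Kit, the receptor for the Kitl product, was at 5.07, 5.05 and 4.42 FPKM in Zfp90 fl/fl and at 8.35, 4.16 and 4.13 FPKM in Zfp90ΔIEC, with overlap and an adjusted p of 0.868 in limma. Its log2 fold change was 0.10 with a standard error of 0.228, and -0.18 without Zfp90ΔIEC sample 1. That sample also had the highest Muc2 level, 1010 FPKM. Muc2 was at 593 and 465 FPKM in Zfp90ΔIEC samples 2 and 3 and at 431 to 444 FPKM in Zfp90 fl/fl. Kit is also expressed by secretory cells of the colon crypt, and a link between its level and that of Muc2 was not tested. Tpsg1, a membrane-bound tryptase gene, was at 7.87, 9.23 and 8.21 FPKM in Zfp90 fl/fl and at 10.6, 8.99 and 7.75 FPKM in Zfp90ΔIEC, so it was well above every granule tryptase and its groups overlapped.

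Of the neighbours of the chymase genes on chromosome 14, 9 were listed, 6 were at 0 in all samples and Gzmb, the granzyme of cytotoxic lymphocytes, was the 1 tested. Gzmb was at 1.49, 0.790 and 2.65 FPKM in Zfp90 fl/fl and at 1.19, 0.508 and 0.607 FPKM in Zfp90ΔIEC, with overlap and an adjusted p of 0.412 in limma, and the log2 fold change of -0.54 was -0.28 without Zfp90 fl/fl sample 3. Mcpt8, the basophil protease gene next to Mcpt4, was listed above 0 in 1 sample only, Zfp90 fl/fl sample 3, at 0.107 FPKM.

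Among 17 cytokine and homing genes of mast cells, 1 was tested, Il18, with 0 past the threshold in limma and 0 at an unadjusted p under 0.05. Its log2 fold change was -0.21 with a standard error of 0.119, and -0.09 without Zfp90 fl/fl sample 3. Il9, a mast cell growth factor of the gut, was at 0 in all samples, and Il33 lay between 0.276 and 0.669 FPKM with overlap. The integrins that carry mast cell progenitors and lymphocytes into the gut wall and hold them at the epithelium were below the filter and were picked after their values were seen. Itgb7 was at 0.570, 0.520 and 0.756 FPKM in Zfp90 fl/fl and at 0.196, 0.293 and 0.405 FPKM in Zfp90ΔIEC. Its partner Itgae was at 1.13, 0.621 and 1.01 FPKM in Zfp90 fl/fl and at 0.228, 0.377 and 0.543 FPKM in Zfp90ΔIEC. Both were lower in every Zfp90ΔIEC sample.

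TGFβ drives the mucosal protease genes in cultured mast cells, and its list had 9 of 14 genes tested, 0 past the threshold in limma, 1 at an unadjusted p under 0.05 and a median of -0.12. That gene was Smad4, the shared signal transducer, at 26.7, 29.6 and 30.7 FPKM in Zfp90 fl/fl and at 24.0, 21.5 and 27.7 FPKM in Zfp90ΔIEC. Its groups overlapped, and the log2 fold change was -0.24 with a standard error of 0.1. Of the tested genes of this list, Itgav had the largest change and Thbs1 the highest level, and both went the other way with overlap. Their log2 fold changes were 0.27 and 0.10, with standard errors of 0.231 and 0.109. Tgfb1 lay between 0.768 and 1.08 FPKM over all samples and missed the filter.

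The list of genes that act downstream of KIT and the IgE receptor had 17 of 21 tested, 12 of them (70.6%) below 0 against 57.2% of all tested genes, and a median log2 fold change of -0.05. None was past the threshold in limma, and 3 had an unadjusted p under 0.05, Lyn, Gab2 and Sos1, all lower in Zfp90ΔIEC, which is 17.6% against the 14.6% of all tested genes. Lyn, a kinase of the IgE receptor that many cell types share, was at 9.03, 9.97 and 8.39 FPKM in Zfp90 fl/fl and at 6.34, 6.08 and 6.55 FPKM in Zfp90ΔIEC. Its groups stood apart, with a log2 fold change of -0.46, a standard error of 0.0729 and an adjusted p of 0.0664 in limma.

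Inhibitors that can restrain granule proteases had 5 of 14 genes tested, 0 past the threshold in limma, 1 at an unadjusted p under 0.05 and a median of -0.18. That gene was Slpi, an inhibitor secreted by epithelium and macrophages that acts on chymase and neutrophil elastase. It was at 3.59, 4.66 and 1.37 FPKM in Zfp90 fl/fl and at 0.437, 0.459 and 0.819 FPKM in Zfp90ΔIEC, with sample 2 highest and sample 3 lowest in Zfp90 fl/fl as for Mcpt1. The log2 fold change was -1.34 with a standard error of 0.306 and an adjusted p of 0.128 in limma, and it was -1.71 and past the threshold without Zfp90 fl/fl sample 3.

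**Figure D4:**
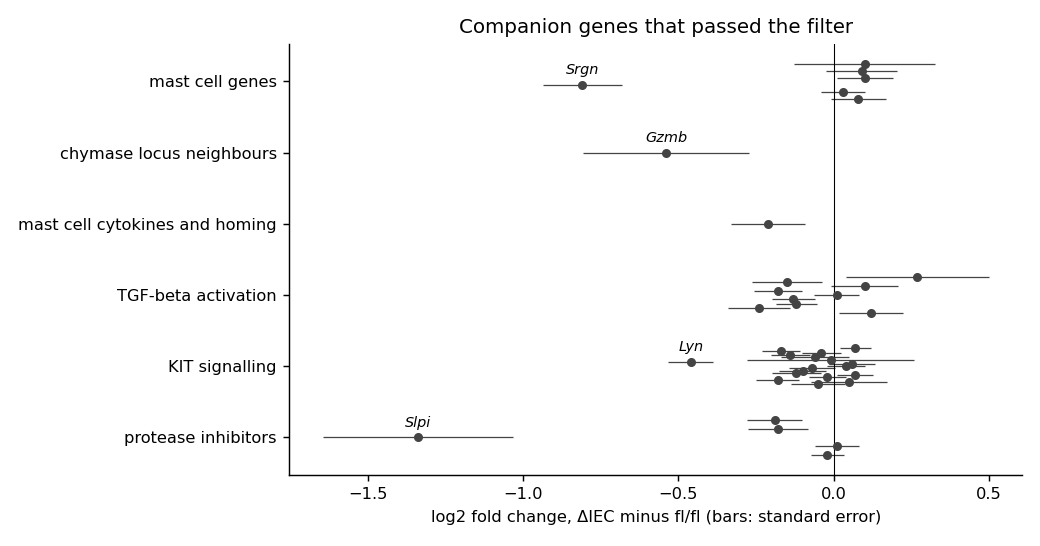
Log2 fold changes, Zfp90ΔIEC minus Zfp90 fl/fl, of the 39 companion genes that passed the filter (points; bars, standard error), by list; Srgn, Gzmb, Lyn and Slpi are named. Srgn at -0.81 and Slpi at -1.34 lie apart from the rest of their lists, and 0 of the 39 were past the threshold in limma.

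Markers of other cell types that could enter the preparation were summed beside these results. The 7 macrophage markers summed to 7.40 to 10.0 FPKM in Zfp90 fl/fl and to 3.20 to 4.38 FPKM in Zfp90ΔIEC, with 7 of 7 lower in mean and none at 0 in all samples. The 5 B and plasma cell markers summed to 0.591 to 0.939 against 0.123 to 0.213 FPKM, with 5 of 5 lower. The 7 markers of T and intraepithelial lymphocytes summed to 3.77 to 12.5 against 3.06 to 4.12 FPKM, with 7 of 7 lower and overlapping sums. The 4 eosinophil markers summed to 0.154 to 0.231 against 0.0724 to 0.115 FPKM, with 3 of 4 lower. The 7 neutrophil markers summed to 24.9 to 46.9 against 21.9 to 32.9 FPKM, nearly all from Ly6g, with 5 of 7 lower in mean. Without Ly6g the sum was 0.955 to 2.2 against 0 to 0.0256 FPKM. Of the 7, 3 were lower without overlap, against 8.88% of all genes above 0 in at least 1 sample. S100a8 and S100a9 were at 0.236 to 0.466 and at 0.476 to 1.62 FPKM in Zfp90 fl/fl and listed at 0 in all 3 Zfp90ΔIEC samples. The macrophage, B and plasma cell and eosinophil sums were thus also lower in every Zfp90ΔIEC sample, the last 2 of them at under 1 FPKM. The lymphocyte sum, and the neutrophil sum with Ly6g in it, overlapped. For scale, 57.2% of all tested genes had a log2 fold change below 0. The part of these differences in the lower Mcpt1, Mcpt2 and Srgn was not tested.

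Basophils share Fcer1a, Ms4a2 and Cpa3 with mast cells, and their defining proteases were at or near 0: Prss34 was at 0 in all samples and Mcpt8 above 0 in the 1 sample named above. The 4 basophil markers summed to 0.162 to 0.207 FPKM in Zfp90 fl/fl and to 0.128 to 0.168 FPKM in Zfp90ΔIEC, with overlap. The 9 fibroblast and muscle markers summed to 0.314 to 0.538 against 0.220 to 0.834 FPKM, with overlap. Markers of interstitial cells of Cajal summed to 23.2 to 28.0 against 25.5 to 29 FPKM, nearly all from Ano1 and Kit. The remaining marker, Etv1, lay between 0.0509 and 0.150 FPKM, and Kit is also expressed by secretory cells as said above. Glial and neuronal markers summed to 0.157 to 0.204 against 0.127 to 0.232 FPKM. The endothelial sum was 0.347 to 0.488 against 0.518 to 0.603 FPKM, higher through Pecam1 alone: 3 of 4 markers were lower in mean, and without Pecam1 the sum was 0.150 to 0.175 against 0.101 to 0.126 FPKM. The 10 epithelial markers summed to 10100 to 12500 FPKM in Zfp90 fl/fl and to 12900 to 16800 FPKM in Zfp90ΔIEC, and this separation came from Car1, since the sums without it overlapped at 6110 to 6890 against 6600 to 6700 FPKM. By gene, Car1 was not alone. Slc26a3 was at 76.0 to 89.9 against 108 to 129 FPKM and Muc2 at 431 to 444 against 465 to 1010 FPKM. Both were higher in Zfp90ΔIEC without overlap, while 4 of the 10 epithelial markers were lower in mean. None of the 9 tested was past the threshold in limma. The part of these differences in the members' levels was not tested.

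Zfp90 fl/fl sample 3 had the lowest Mcpt1, Mcpt2, Cpa3, Fcer1a, Ms4a2 and Tpsb2 of its group and the highest Mcpt4, Srgn and Hdc, so the mast cell genes did not share an order among these 3 samples. It also had the highest sums of T cell markers, 12.5 FPKM, and of neutrophil markers, 46.9 FPKM, the latter nearly all from Ly6g.

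**Figure D5:**
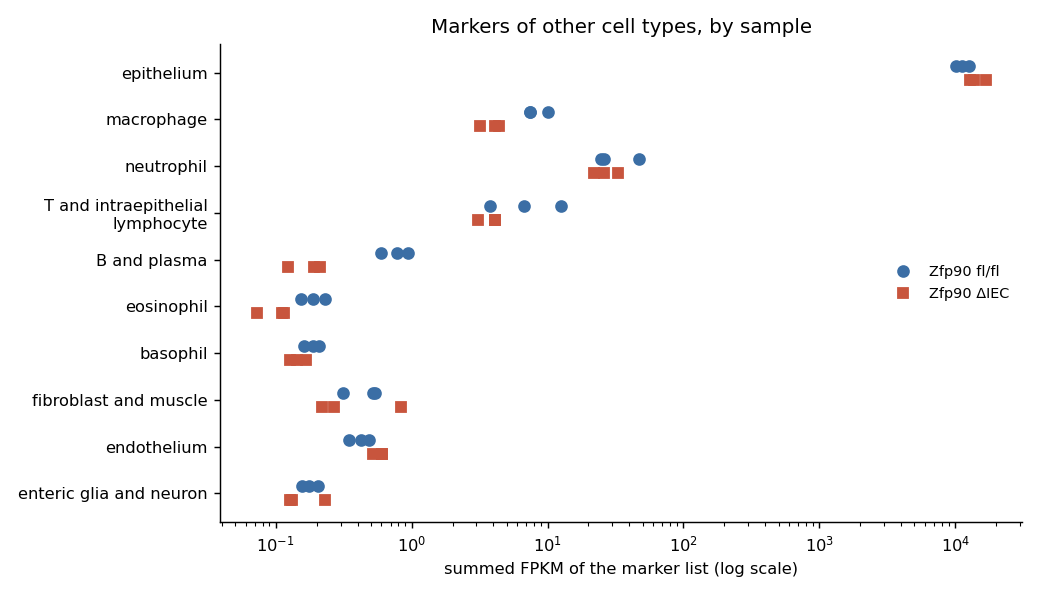
Summed FPKM of the marker list of each cell type in the 3 Zfp90 fl/fl samples (blue circles) and the 3 Zfp90ΔIEC samples (red squares), on a log axis. The macrophage, B and plasma cell and eosinophil sums are lower in every Zfp90ΔIEC sample, the epithelial and endothelial sums are higher through Car1 and Pecam1, and the epithelial sum of 10100 FPKM or more exceeds the others by far.

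The genes whose levels followed those of Mcpt1 and Kitl most closely were found among 6660 genes with a mean of 5 FPKM or more, as Pearson's r of log2(FPKM + 1) over the 6 samples, all of which share the split by genotype. For Mcpt1 they included Eef1a1 (r = 0.996), Rpl6 (0.995), Arhgap35 (0.992) and Egln3 (0.990). Eef1a1, a translation elongation factor gene, had means of 2130 FPKM in Zfp90 fl/fl and 1820 FPKM in Zfp90ΔIEC, a far smaller fold than that of Mcpt1. For Kitl these were Utp3 (r = 0.997), Tspyl1 (0.996), Rps18 (0.992), Rtcb (0.991) and Slc7a6os (0.987), and Utp3 had means of 19.1 and 17.5 FPKM. The r between Mcpt1 and Kitl was 0.899. These values are a description of 6 samples in 2 groups.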

How the data were processed

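RNA-seq of colon epithelium was used from 6 samples, grouped by their titles. The genotype field names another gene number for 2 Zfp90ΔIEC samples, which were kept in that group. The authors made strand-specific paired-end libraries, mapped with TopHat and ran Cuffdiff at default options, naming a human genome. The submitters' processing notes instead name FastQC, STAR 2.5, Cuffnorm, DESeq 1.22.1 and mm9. They deposited 1 FPKM per mouse Ensembl gene and sample, and 52403 of 52550 IDs matched a symbol. The unit was taken from the methods and the values, and no gene coordinates are given except those of the printed promoters, since the builds disagree.

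From the FPKM, log2(FPKM + 1) was computed. Genes at 1 FPKM or more in at least 3 samples (11564) were tested in limma 3.58.1 (R 4.3.3, trend, 2 groups, Benjamini-Hochberg, threshold 0.05), and the procedure was tested on simulated data. Values of genes below the filter come from the fit without it. Depth was estimated from the steps of low values of genes with 1 transcript, of which 50.7% to 54.2% lay within 0.1 of a whole fragment, and is rough. Fragments are not independent molecules. A p-value sets the difference between the groups against the spread between samples, which limma moderates with that of other genes. Motifs and identities were computed in Python 3.11.15 with pandas 2.3.3 and numpy 2.4.6, and figures drawn with matplotlib 3.10.9.

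The members, companion and marker lists were chosen with earlier results of these data known. The genes named were all 10 members, Zfp90, and from each list any past the threshold, the 2 with the highest mean and the 2 with the largest change, of which those that bear on the members are described. Of the genes followed, the 5 with the highest r to Mcpt1 and to Kitl were named, except 1 that is not reported here. Other genes were chosen after their values were seen. Alternatives were leaving out each sample, a replicate block, scaling by median ratios or quantiles, a pseudocount of 0.1 and testing without the filter.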

Additional observations from a re-analysis of the deposited data

How the results depend on the processing

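The count of genes past the threshold, 23, was 13 at a pseudocount of 0.1, 15 with no filter, 47 with the replicate block, 25 after quantile or median ratio scaling, and 10 to 21 when a sample was left out. Leaving out Zfp90 fl/fl sample 2 gave the 10, and 3 of them were lower in Zfp90ΔIEC, against 15 of the 23. The companion count of 0 was 0 to 1 when a sample was left out, the 1 being Slpi (-1.71) without Zfp90 fl/fl sample 3, and 0 under the other alternatives. The cause was not tested. At a pseudocount of 0.1 the log2 fold change was -3.69 for Mcpt1, -3.80 for Mcpt2, -1.31 for Srgn, -2.18 for Slpi and -0.94 for Gzmb, since the constant shrinks low values less. Left-out samples gave -2.94 to -2.62 for Mcpt1, -2.43 to -2.17 for Mcpt2 and -0.40 to -0.27 for Kitl. Over left-out samples, Kit ranged from -0.18 to 0.25, Thbs1 from -0.01 to 0.21, Tpsg1 from -0.01 to 0.19, Spint2 from -0.04 to 0.01 and Src from -0.27 to 0.23. Turned in sign were Kit (-0.18), Thbs1 (-0.01), Tpsg1 (-0.01) and Src (0.12) without Zfp90ΔIEC sample 1, Src (0.11) and Spint2 (0.01) without Zfp90ΔIEC sample 3, Src (0.23) without Zfp90 fl/fl sample 3, Src and Spint2 (0.01 each) after median ratio scaling and Spint2 (0.0) after quantile scaling.

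Samples with the same replicate number correlated in their deviations from the group means at 0.194, 0.110 and 0.0782, so the numbers were not taken as pairs. Each sample nonetheless correlated best with the sample of its own number, which is a hint from the data and not from the design. The replicate block changed no call among Mcpt1, Mcpt2, Kitl and the companion genes.

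With 3 samples a group and a few fragments behind Mcpt4, Mcpt9, Cpa3, Tpsb2, Fcer1a and Ms4a2, a value of 0 cannot be told from a low level at this depth. Cage, genotype and the amount of immune RNA in the preparation cannot be told apart. Mast cell number was not measured.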
